A study of Homo sapiens with 8 samples.

Results

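The cytosolic ribosomal protein genes encode the proteins of the 40S and 60S subunits of the ribosome that translates nuclear messages in the cytosol. They were taken as every protein-coding gene whose symbol is RPL or RPS followed by a number, with or without a final A or X, together with RPLP0, RPLP1, RPLP2 and RPSA. Pseudogenes, L-suffixed paralogs, S6 kinases and read-through genes were not included. The rule gave 77 of the 18478 genes in the table, 31 of the small subunit and 46 of the large subunit, and all 77 had a value in every column.

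The RNA came from A2058 and C8161, human melanoma cell lines kept in DMEM with 10% fetal bovine serum and penicillin/streptomycin. In each line, cells overexpressing ATF-3 (the gene ATF3, a stress-induced member of the ATF/CREB transcription factors) after retroviral transduction were set against neomycin controls. A2058 has 1 library in each arm and C8161 has 3. The labels do not say which promoter drove ATF3, whether cells were pools or single clones, or whether libraries came from separate cultures. Levels are the authors' RPKM, in which reads are divided by gene length and by the size of the library. The table holds 4 columns, 1 for each A2058 library and, for C8161, 1 that combines each arm. No comparison therefore had a replicate spread, no test was possible, and the differences below describe these 4 columns. ATF3 itself was at 62.6 RPKM in transduced C8161 against 4.76 in the control, and at 4.71 RPKM in transduced A2058 against 1.22. Of 8 melanocyte markers, all were above 1 RPKM in both A2058 columns, with PMEL at 853 and 806 RPKM and SOX10 at 253 and 254 RPKM. In C8161 only MITF reached 1 RPKM, at 1.02 with ATF3, and TYR was listed at 0 in both columns, so the defining markers of the melanocyte lineage were absent or near 0 in that line. Of the endothelial markers, CDH5 was at 18.1 RPKM in C8161 with ATF3 against 8.86 in the control. TIE1 (62.8 against 67.2 RPKM) and ROBO4 (18.1 against 20.5 RPKM) were slightly lower with ATF3 in that line. PECAM1, VWF and KDR were at 0.34 RPKM or less in every column. The part of CDH5 in the results below was not tested.

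Each ribosome carries a single copy of most of these proteins, and a cell makes the set together in large amounts. Much of the control is translational. Their messages start with a C followed by a run of pyrimidines, the 5′ terminal oligopyrimidine (TOP) tract, which LARP1 binds and through which the kinase complex mTORC1 sets how much of the message is translated. RNA level is therefore only part of what sets their output. Ribosomal proteins made in excess are degraded, and free RPL5 and RPL11 bind MDM2, the ubiquitin ligase of p53.

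The stretches around the annotated start of 13 members are shown because this is where a TOP tract would stand, and because these genes lie at the ends of the comparisons described below. RPS29, RPS15 and RPS28 have no such tract at the listed start. In RPS28 a run of pyrimidines begins at the base after the listed start, so its class depends on the exact start annotated. Each stretch runs 5′ to 3′ from 8 bases before the start to 20 bases from it, from RefSeq (GRCh38.p14). Capitals mark a C at the start and the unbroken run of C or T after it, where at least 4 such bases follow the C. The first 8 genes had the lowest ratios of ATF3 to control in C8161.
RPS21 (chr20:62387095-62387122, plus strand): agctgcttCCTTTCTCTCTCgcgcgcgg
RPS29 (chr14:49598691-49598718, minus strand): cgcgcagctggcagcggtggttgtttct
RPL18 (chr19:48619159-48619186, minus strand): cccgttctCTCTTTCCggacctggccga
RPS15 (chr19:1438388-1438415, plus strand): gcgcggaccaaagcgatctcttctgagg
RPLP1 (chr15:69452810-69452837, plus strand): cgcgagagCCCCTTTCCTCagctgccgc
RPLP2 (chr11:809959-809986, plus strand): ggcgccttCCTTTTCCTCCCTgtcgcca
RPS10 (chr6:34426050-34426077, minus strand): tgctccttCCTTTCCagccccggtaccg
RPS28 (chr19:8321488-8321515, plus strand): agcacgtgactcctctccgccagaccgc
RPS24, RPS6 and RPL21 were among the 4 with the highest ratios in C8161.
RPS24 (chr10:78033855-78033882, plus strand): tcgtggttCTCTTTTCCTCCTTggctgt
RPS6 (chr9:19380217-19380244, minus strand): agttggccCTCTTTTCCgtggcgcctcg
RPL21 (chr13:27251550-27251577, plus strand): gcctctttCCTTTCggccggaaccgcca
RPL35A had the highest and RPL38 the lowest ratio between the control lines.
RPL35A (chr3:197950182-197950209, plus strand): gcctcgtcCTTCTCTTaccgccatcttg
RPL38 (chr17:74203670-74203697, plus strand): gtctcgttCTTTTTCgtccttttccccg

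A C at the start followed by at least 4 further pyrimidines occurred at 46 of the 77 RefSeq windows of members (59.7%), against 4.07% of the 35116 windows of all genes. These windows cover 62 members, some with several starts, and 46 members had such a start. Another 16 had windows without one, among them RPS15, RPS28 and RPS29, whose sequences above have no capitals. The 15 members with no window listed include RPL23, RPL23A, RPL30, RPL37, RPL5, RPL7, RPL8, RPS15A, RPS2 and RPS20. Over the 300 bases of the window, on both strands, the ETS core CCGGAAG stood in 33.8% of members' windows and 10.3% of all. The YY1 core AAGATGGC stood in 7.79% against 2.89%, TATAAA in 6.49% against 11.5% and the E box CACGTG in 5.19% against 7.26%. The full cAMP response element TGACGTCA, the palindrome of the ATF/CREB family, was found at 3 members, RPL18, RPL3 and RPLP2 (3.90% against 1.85% of all windows). The AP-1 element TGACTCA was found at RPL24 alone (1.30% against 4.95%). These matches describe letters in a window and do not show binding.

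The members were among the most abundant messages of both lines. They took 17.5% of the summed RPKM in A2058 with ATF3 and 17.4% in its control, and 17.9% in C8161 with ATF3 and 18.9% in its control. Of the 100 most abundant genes in each column, 59 to 61 were members. The median member was at 1003 RPKM in A2058 with ATF3, 976 RPKM in the A2058 control, 1115 RPKM in C8161 with ATF3 and 1175 RPKM in the C8161 control. Both subunits had like medians, at 998 RPKM (40S) and 971 RPKM (60S) in the A2058 control and 1175 and 1149 RPKM in the C8161 control.

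Although most of the proteins are present in equal numbers, the levels per length of the highest and lowest member differed 19.6-fold in each A2058 column, and 11.4-fold and 11.9-fold in C8161 with ATF3 and in its control. RPS2, a small-subunit protein near the entry of the mRNA channel, had the highest mean level, with 2928 and 2906 RPKM in A2058 with ATF3 and control and 2196 and 2491 RPKM in C8161. RPL8 (2616, 2627, 2055 and 2302 RPKM in the same order) and RPS18 (2539, 2401, 2054 and 2205 RPKM) came next. They were followed by the stalk protein RPLP1 (2414, 2446, 1899 and 2429 RPKM) and by RPL41, the smallest ribosomal protein (2321, 2254, 1644 and 1706 RPKM). All but RPL41, at place 11 in the C8161 control, were among the 5 highest members of both controls. At the other end stood RPL22 (165, 159, 203 and 209 RPKM), RPL27A (150, 149, 249 and 261 RPKM) and RPS23 (166, 163, 247 and 258 RPKM), with RPL13 (215, 211, 248 and 296 RPKM) and RPL37 (393, 383, 295 and 294 RPKM) above them.

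The low members share a feature of annotation. Of the 10 members with the lowest mean level, 9 have a coding transcript over 2000 bases linked to RefSeq in GENCODE 29, against 18 of all 77. The longest such transcript is 4916 bases for RPL27A, 3437 for RPS23, 4498 for RPL13 and 7686 for RPL37, whereas the median over members is 985 bases. RPKM divides by a transcript length that the sources used here do not give, so the part of annotation in these low levels was not tested. In differences between columns for 1 gene that length cancels only if it was the same in both columns, which the sources used here do not say. Shared sequence limits the levels as well. In 75 of the 77 at least one 50-base stretch also occurs in transcripts of another gene, and in 20 at least 50% do. For RPS10, RPL17 and RPL12 at least 50% occur in another gene that has its own row in the table, and RPL36A shares its name with a read-through gene. The order of members was close in the 2 lines: over the 77 members, Spearman's rho between the control columns was 0.778, given as a description.

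**Figure D1:**
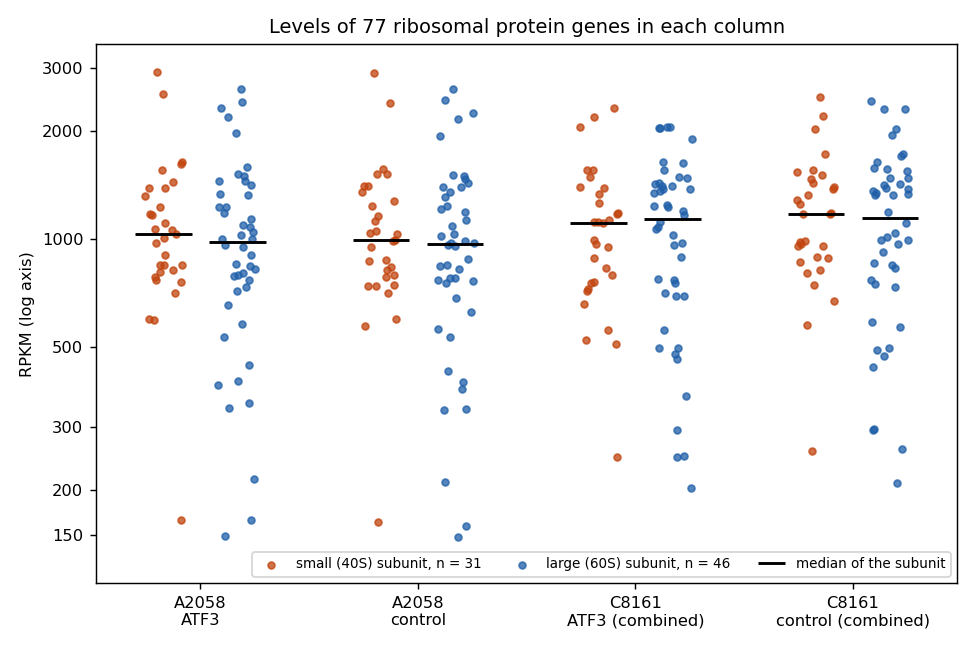
RPKM (log axis) of each of the 77 members in the 4 columns, with small-subunit genes in red, large-subunit genes in blue and the subunit median as a bar. The medians of both subunits lie near 1000 RPKM in every column, and RPL22, RPL27A and RPS23 lie lowest, between 149 and 261 RPKM.

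The first comparison sets C8161 cells that overexpress ATF3 beside the neomycin control. Most members were lower with ATF3, by small amounts. The log2 ratio of RPKM + 1 was below 0 for 59 of 77 members, where 47.3% of all 10941 genes compared and 55.9% of the other genes of 100 RPKM or more were below 0. The other 18 were above 0, against 52.0% of all genes and 44.1% of the other abundant genes. The median ratio of members was −0.11, with a range from −0.43 to 0.24, against 0.01 for all genes and −0.02 for the other abundant genes. A difference of log2 0.2 or more was used as the size rule in place of a test. By it 18 members were lower, against 6.63% of all genes and 10.1% of the other abundant genes, and 2 were higher, against 5.33% and 6.54%. RPL10 lay just inside the limit at −0.2028. In this line fewer copies of these messages per cell and more of other messages cannot be told apart, since RPKM is relative to the column's total.

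The small subunit was lower than the large one. Its median ratio was −0.16, with 29 of 31 members below 0. By 0.2 or more 11 were lower (35.5%) and 2 higher (6.45%). For the large subunit the median was −0.07, with 30 of 46 below 0. By 0.2 or more 7 were lower (15.2%) and none higher. Of all genes compared, 47.3% were below 0, and 6.63% were lower and 5.33% higher by that size.

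RPS21, a small-subunit protein, was at 661 RPKM with ATF3 and 891 RPKM in the control, the lowest ratio of all members (−0.43). RPS29, a zinc-binding protein of the subunit's head, was at 558 RPKM with ATF3 and 748 RPKM in the control (−0.42). RPS15, which sits near the decoding site, was at 523 RPKM with ATF3 and 673 RPKM in the control (−0.36). These 3 genes encode small proteins of the 40S subunit and lay 0.742 to 0.778 times the control. RPS10, at the entry of the mRNA channel, was at 1120 against 1399 RPKM (−0.32), but most of its sequence is shared with the read-through gene RPS10-NUDT3, so its value is uncertain. RPS28 was at 725 against 888 RPKM (−0.29). RPS19, the gene most often mutated in Diamond-Blackfan anaemia, was named after its value was seen and was at 1266 against 1471 RPKM (−0.22).

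In the large subunit, RPL18 was at 707 RPKM with ATF3 and 923 RPKM in the control (−0.38). The 3 stalk genes, whose proteins recruit elongation factors to the ribosome, were all lower, as were 59 of the 77 members and 47.3% of all genes. All 3 belong to the highest of the GC content groups described below, in which all 26 members were below 0. RPLP1 was at 1899 against 2429 RPKM (−0.35) and RPLP2 at 1381 against 1728 RPKM (−0.32). RPLP0, the base that anchors both, was at 2055 against 2302 RPKM (−0.16). The acidic P1 and P2 messages thus lay about 0.8 times the control (0.782 and 0.799), and that of the base at 0.893 times.

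A few members went the other way. RPS24 was at 1398 RPKM with ATF3 and 1184 RPKM in the control (0.24). RPS6, the substrate of the S6 kinases, was at 2326 against 2023 RPKM (0.20). RPL23, another protein that can bind MDM2, was at 1362 against 1191 RPKM (0.19), and RPL21 at 1115 against 997 RPKM (0.16). The higher members thus came from both subunits, but the 2 that were higher by 0.2 or more, RPS24 and RPS6, both belong to the small subunit. The pair that binds 5S rRNA was close to equal: RPL5 was at 1083 against 1015 RPKM (0.09) and RPL11 at 1438 against 1422 RPKM (0.02).

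**Figure D2:**
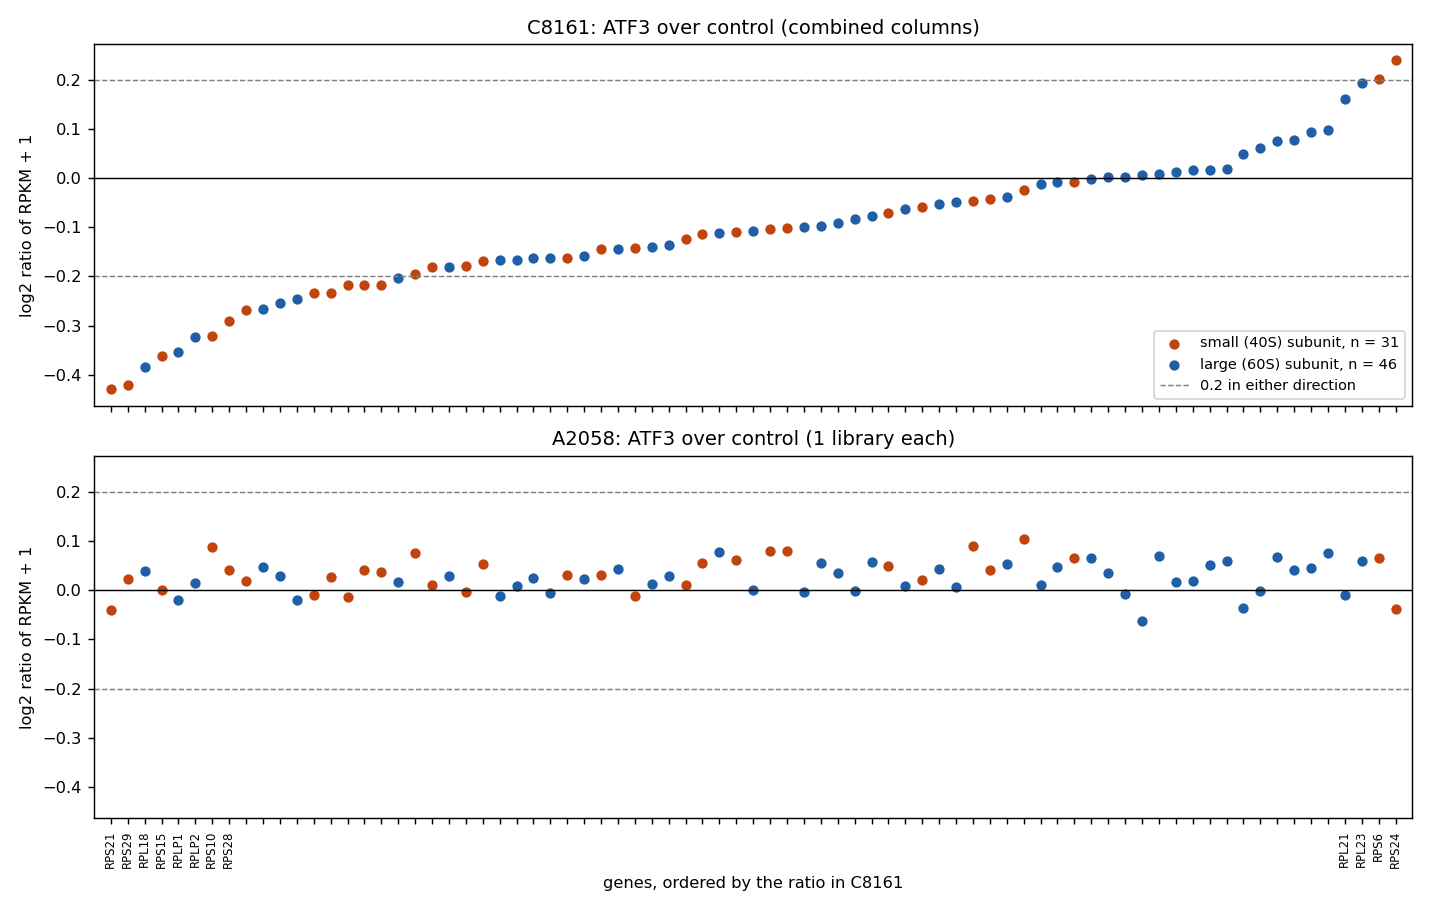
Log2 ratio of RPKM + 1 with ATF3 over control for each of the 77 members, in C8161 (top) and A2058 (bottom), with genes in the same order, the 8 lowest and 4 highest named, small subunit in red and large subunit in blue. In C8161 the ratios run from −0.43 to 0.24 and 18 lie under the lower dashed line at −0.2, whereas in A2058 all lie between −0.06 and 0.10.

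The ratio in C8161 moved with the GC content of the message. Over the 77 members Spearman's rho between ratio and GC content was −0.643, over the other abundant genes −0.383 and over all genes −0.435, all from the same pair of columns. With the length of the reference transcript, rho was 0.292 over members, 0.187 over the other abundant genes and 0.186 over all genes. The members were divided into 3 groups of like size by GC content. In the lowest group (42.1% to 48.1%) the median ratio was 0.00 and none of 26 was lower by 0.2 or more. In the middle group (48.1% to 52.4%) it was −0.10, with 5 of 25. In the highest group (52.4% to 64.1%) it was −0.20, all 26 were below 0 and 13 were lower by 0.2 or more. In the same 3 ranges of GC content the other abundant genes had medians of 0.03, 0.00 and −0.07, and 1.97%, 5.13% and 15% of them were lower by 0.2 or more. Over all genes those shares were 1.69%, 2.74% and 11.6%. In the highest range 217 of 320 other abundant genes and 2485 of 3732 of all genes were also below 0. The members thus lay under the other abundant genes in each range, by the least where GC content was low. RPS24 and RPS6, the highest, have 44.1% and 42.6% GC, whereas RPL18, RPS15, RPLP1 and RPLP2 have 57.8% to 61.6%. RPS21 and RPS29, the lowest, are intermediate, with 52.3% and 51.6%.

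With trends over all genes in GC content and length taken out of the ratio, the member median was −0.09, the small-subunit median −0.10 and the large-subunit median −0.05. Of the 18 members lower by 0.2 or more, 12 still were. RPS21 and RPS29 were again the lowest, each at −0.37. RPL18 moved to −0.28, RPLP1 to −0.25, RPLP2 to −0.22 and RPS15 to −0.22. RPS24 was again the highest, at 0.24, and RPS6 moved to 0.17. After quantile normalization of the 4 columns, the member median was −0.03 and 10 members were lower by 0.2 or more. RPS28 was then at −0.12 and RPL18 at −0.27, whereas RPS29 moved further down to −0.51 and RPLP1 to −0.45. RPS6 was at 0.52. What underlies the GC trend was not tested. By start sequence, the median ratio was −0.10 for the 46 members with the tract at a listed start (median GC content 51.5%), −0.15 for the 16 without (49.4%) and −0.10 for the 15 with no window (49.0%). The difference between these classes was not tested.

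**Figure D3:**
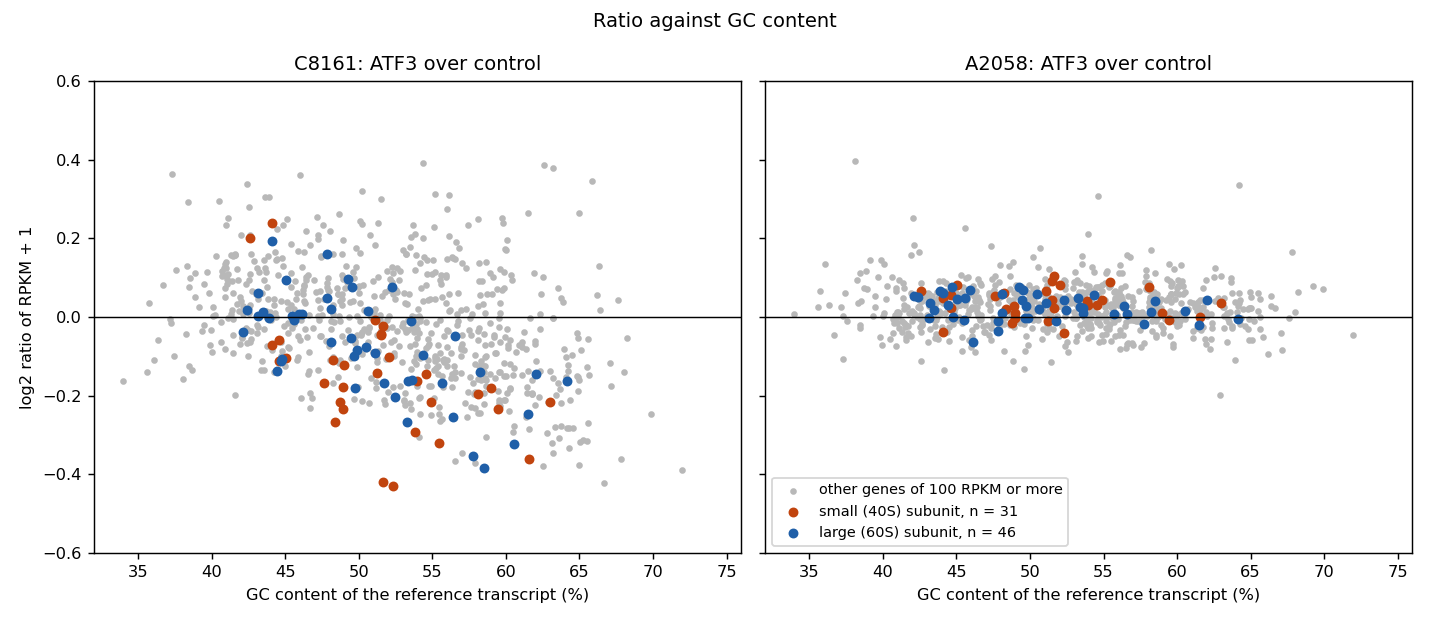
Log2 ratio with ATF3 over control against the GC content of the reference transcript (%), in C8161 (left) and A2058 (right), for members (red 40S, blue 60S) and the other genes of 100 RPKM or more (grey). In C8161 the members' ratios are lower at higher GC content (rho −0.643), and in A2058 they form a flat band (rho −0.174).

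In A2058, the question was the same and the members barely differed. All 77 log2 ratios lay between −0.06 and 0.10, and none passed 0.2 in either direction, where 3.51% of all 11883 genes compared were lower and 4.23% higher by that size. Among the other genes of 100 RPKM or more these shares were 0.00% and 0.840%. The median ratio of members was 0.03, with 60 above 0, where 51.3% of all genes and 68.5% of the other abundant genes were above 0. The medians were 0.04 for the small and 0.03 for the large subunit, and 0.02 for the other abundant genes, so this shift was shared with abundant genes in general.

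The extremes were small. RPS25 was at 1066 RPKM with ATF3 and 991 RPKM in the control (0.10), and RPS12 at 1062 against 998 RPKM (0.09). RPS10 was at 1619 against 1523 RPKM (0.09), RPS20 at 785 against 742 RPKM (0.08) and RPS18 at 2539 against 2401 RPKM (0.08). All 5 belong to the small subunit, which holds 31 of the 77 members, though the medians of the subunits were close (0.04 and 0.03). Among the lowest were RPL35A (735 against 768 RPKM, −0.06), RPS21 (1008 against 1036 RPKM, −0.04), RPS24 (849 against 871 RPKM, −0.04) and RPL24 (826 against 847 RPKM, −0.04). Low values in the A2058 columns lie on steps of whole reads that point to about 17900000 reads (ATF3) and 18400000 reads (control). At that depth a message of 500 bases at 1000 RPKM would hold about 8925 reads, and counting alone would give the log2 ratio of such a gene a standard error of about 0.022. The SD over the 77 members was 0.034. Spread between cultures is not covered by this figure.

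RPS21, lowest in C8161, was also among the lowest in A2058, though only at −0.04. The other members named as low in C8161 lay between −0.02 and 0.09 in A2058. RPS29 was at 760 RPKM with ATF3 against 748 RPKM in A2058 (0.02), RPL18 at 1003 against 976 RPKM (0.04) and RPS15 at 598.9 against 598.5 RPKM (0.00). RPLP1 was at 2414 against 2446 RPKM (−0.02), RPLP2 at 1326 against 1314 RPKM (0.01) and RPLP0 at 1420 against 1394 RPKM (0.03). Over the 77 members, Spearman's rho between the ratios of the 2 lines was 0.223. Below 0 in C8161 and above 0 in A2058 were 48 members, against 25.4% of all genes and 39.9% of the other abundant genes, and 11 were below 0 in both. The difference between the lines, C8161 ratio minus A2058 ratio, had a median of −0.15 over members, against 0.00 over all genes and −0.04 over the other abundant genes. It could not be tested with 1 value per arm, and the ATF3 level reached also differed, at 62.6 RPKM in C8161 and 4.71 RPKM in A2058.

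Genes that work with the ribosomal proteins were set beside them. FAU and RACK1 are ribosomal genes outside the symbol rule, and both were lower with ATF3 in C8161, as were 47.3% of all genes. FAU, a ubiquitin-like fusion with a small-subunit protein, was at 430 RPKM with ATF3 and 521 RPKM in the control (−0.28). RACK1, a scaffold on the 40S subunit, was at 1272 against 1383 RPKM (−0.12). FAU and RACK1 have 60.6% and 53.9% GC, and without the GC and length trends they were at −0.18 and −0.10. The 77 mitochondrial ribosomal protein genes, a set chosen after the values were seen, had a median of −0.09 in C8161. Of them 57 were below 0, against 47.3% of all genes. By 0.2 or more 12 were lower (15.6%, against 6.63% of all genes and 23.4% of members) and none higher. These values were near those of the large subunit (median −0.07, 15.2% lower) and not those of the small subunit (−0.16, 35.5%). A difference between the mitochondrial and cytosolic sets was not tested.

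Other genes known for TOP messages, most but not all of them for translation factors, had a median of 0.02 in C8161. Of 13, 1 was lower by 0.2 or more (7.69%, near the 6.63% of all genes) and none was higher. Their start sequences were not examined, and a difference from the members was not tested. EEF2, the translocation factor, was at 595 RPKM with ATF3 and 689 RPKM in the control (−0.21), and EIF3F, an initiation factor subunit, at 298 against 337 RPKM (−0.18). EIF4B, which helps the initiation helicase, was at 172 against 154 RPKM (0.16), and TPT1 at 449 against 405 RPKM (0.15). EEF2 and EIF3F have 59.9% and 54.8% GC, and EIF4B and TPT1 have 50.1% and 44.8%.

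Ribosome biogenesis factors had a median of −0.04 over 40 genes in C8161, with 3 lower and 1 higher by 0.2 or more (7.5% and 2.5%, against 6.63% and 5.33% of all genes). These shares, and those of the RNA polymerase I and mTORC1 lists, rest on 1 to 3 genes each and are not results about the lists. BOP1, of the large-subunit PeBoW complex, was at 89.3 against 111 RPKM (−0.31) and the rRNA methyltransferase fibrillarin, FBL, at 188 against 221 RPKM (−0.23). NOP16 was at 57.7 against 66.9 RPKM (−0.21). NOP10, of the box H/ACA particles, was at 219.5 against 188 RPKM (0.22). For RNA polymerase I and rDNA factors the median was −0.03 over 13 genes, with 1 lower by 0.2 or more (7.69%), POLR1H, at 26.8 against 33.2 RPKM (−0.30). The mTORC1 and TOP regulators had a median of −0.02 over 15 genes compared, with 2 lower by 0.2 or more (13.3%). EIF4EBP1, the translation repressor phosphorylated by mTORC1, was at 58.0 against 72.4 RPKM (−0.32), and MLST8, an mTORC1 subunit, at 25.5 against 31.3 RPKM (−0.29). LARP1 itself was named after its value was seen, at 56.8 against 56.4 RPKM. MYC, which drives ribosome production in many cells, was at 100.3 against 107 RPKM in C8161 (−0.10) and at 38.6 against 42.5 RPKM in A2058 (−0.13). None of the 7 transcription factors in its list passed 0.2 in C8161. Housekeeping genes had a median of −0.08 in C8161, led by GAPDH at 5542 against 6273 RPKM (−0.18).

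In A2058 the medians of these lists were 0.03 for mitochondrial ribosomal proteins, 0.02 for the other TOP genes, 0.01 for biogenesis factors, −0.03 for RNA polymerase I and −0.06 for the mTORC1 list. Of the genes in these lists, 1 mitochondrial ribosomal protein gene passed 0.2, in the higher direction.

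**Figure D4:**
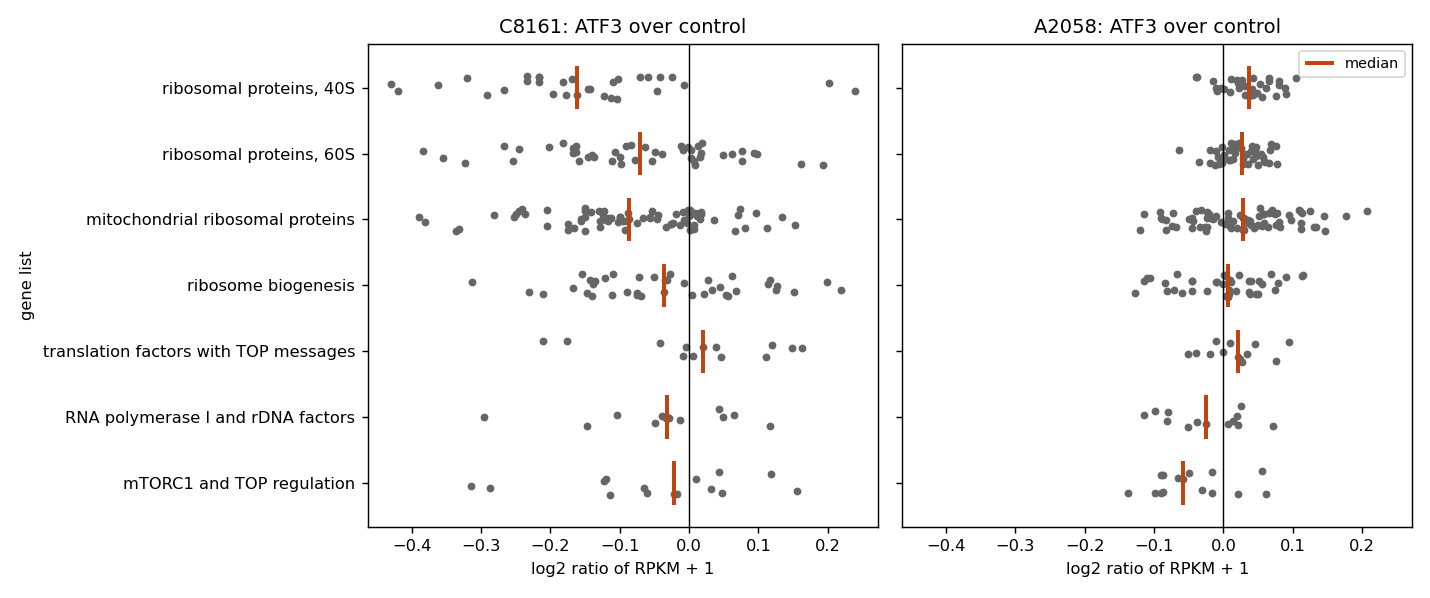
Log2 ratio of RPKM + 1 with ATF3 over control for each gene of 7 lists, in C8161 (left) and A2058 (right), with a bar at the median of each list. In C8161 the medians of the 40S (−0.16), mitochondrial ribosomal (−0.09) and 60S (−0.07) lists are the lowest. In A2058 the medians of the same lists lie just above 0 (0.04, 0.03 and 0.03), with genes on both sides of 0.

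Of the paralogs of ribosomal proteins, RPL36AL alone reached the levels of the lowest members. It was at 227 and 223 RPKM in A2058 with ATF3 and control and 272 and 257 RPKM in C8161. RPL7L1, RPL22L1, RPL26L1, RPL39L and RPS27L lay between 24.3 and 111 RPKM over all 4 columns. The muscle paralog RPL3L and the testis paralog RPL10L were at or near 0 in every column, at 0.11 RPKM or less. In C8161 with ATF3 none of the 6 paralogs compared passed 0.2; the lowest was RPL22L1, at 56.5 against 64.6 RPKM (−0.19). All 6 were higher in the C8161 control than in the A2058 control by more than 0.2, with RPL39L at 59.4 against 24.3 RPKM. RPL36AL only just passed, at 0.2009. By 0.2 or more, 31.1% of all genes and 43.1% of the other abundant genes were higher in that comparison.

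The last comparison sets the control lines beside each other, without introduced ATF3. It shares the control columns with the comparisons above. The median log2 ratio of members, C8161 control over A2058 control, was 0.17, whereas that of all 12372 genes compared was −0.19 and that of the other abundant genes 0.07. By the size of 0.2, 37 members were higher in C8161, where 31.1% of all genes and 43.1% of the abundant genes were, and 15 were lower, against 49.2% and 35.4%. Above 0 were 46 members, against 40.7% and 53.7%. The member median was 0.02 after quantile normalization and 0.36 relative to the median of all genes, so its size depends on the scaling.

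Single members differed far more between lines than with ATF3 within a line. RPL35A, a large-subunit protein mutated in some families with Diamond-Blackfan anaemia, was at 2032 RPKM in the C8161 control against 768 RPKM in the A2058 control, 2.65 times. It moved from place 56 of the 77 in A2058 to place 6 in C8161. RPL4, which lines the exit tunnel, was at 1637 against 828 RPKM (1.98 times) and RPS20 at 1436 against 742 RPKM (1.94 times). RPL9 (1364 against 780 RPKM) and RPL27A (261 against 149 RPKM) were both about 1.75 times as high. The columns with ATF3 gave the same picture, with RPL35A at 2041 RPKM in C8161 and 735 RPKM in A2058, RPL4 at 1627 and 856 RPKM, and RPS20 at 1336 and 785 RPKM.

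Among members lower in C8161, RPL38, known for its part in translation of Hox messages in the mouse embryo, was at 498 against 842 RPKM (0.591 times). RPL19 was at 1571 against 2157 RPKM (0.728 times) and RPL27 at 1417 against 1935 RPKM (0.732 times). RPL41 was at 1706 against 2254 RPKM and RPS16 at 969 against 1280 RPKM, each 0.757 times, but without the GC and length trends RPS16 was at −0.11 on the log2 scale. RPL38, RPL19 and RPL27 all lie on chromosome 17.

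The control-line ratios of members were also set beside those of their neighbours in the genome. For each member the median control-line ratio of the other genes within 5 Mb was taken, leaving out all ribosomal protein genes. Over the 77 members Pearson's r between a member and its neighbourhood was 0.675 and Spearman's rho 0.658. Over 716 other genes of 100 RPKM or more, r was 0.360 and rho 0.439. The ratios of the other abundant genes spread far more widely (SD 1.83, against 0.41 for members), so the coefficients are not directly comparable. All points come from the same pair of columns and neighbourhoods overlap, so these are descriptions. Members were again divided into 3 groups, by neighbourhood. In the lowest group, with neighbourhoods from −0.91 to −0.36, the median member ratio was −0.12, with 9 of 26 above 0. In the middle group it was 0.17, with 14 of 25, and in the highest 0.49, with 23 of 26. Most members, 67 of 77, lay above the median of their neighbourhood. Neighbourhoods hold genes of all levels, whose median ratio was −0.19, against 0.17 for members and 0.07 for other abundant genes. The matching share of other abundant genes was not counted, so this count is not a trait of members.

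RPL35A (chromosome 3, 197950190 to 197956610, GRCh38) had 35 neighbours with a median of 0.60, the highest of all neighbourhoods. RPS20 (chromosome 8, 56067254 to 56074506) had 20 neighbours at 0.55. RPL27A (chromosome 11, 8682792 to 8689872) had 59 neighbours at 0.51. RPL38 (chromosome 17, 74203678 to 74210655) had 84 neighbours at −0.72, RPL19 (39200283 to 39204732) had 137 at −0.63, and RPL27 (42998273 to 43002959) had 157 at −0.63. On chromosome 17 as a whole, 5 of 6 members were lower in the C8161 control, and the median of the other genes there was −0.61. On chromosome 3 both were higher, with medians of 0.46 over 7 members and 0.19 over the other genes, and on chromosome 19 both were lower, at −0.09 over 12 members and −0.31. On chromosome 8 the 4 members had a median of 0.60 and the other genes −0.16, and on chromosome 11 the 5 members had 0.40 and the other genes −0.08, so over these whole chromosomes they went opposite ways. The member that was higher on chromosome 17 was RPL26, named after its value was seen, at 1331 against 976 RPKM with a neighbourhood at −0.79. RPL4 stood 0.98 higher in C8161 with a neighbourhood at only 0.10. RPL41 stood lower at −0.40 with a neighbourhood at −0.12.

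**Figure D5:**
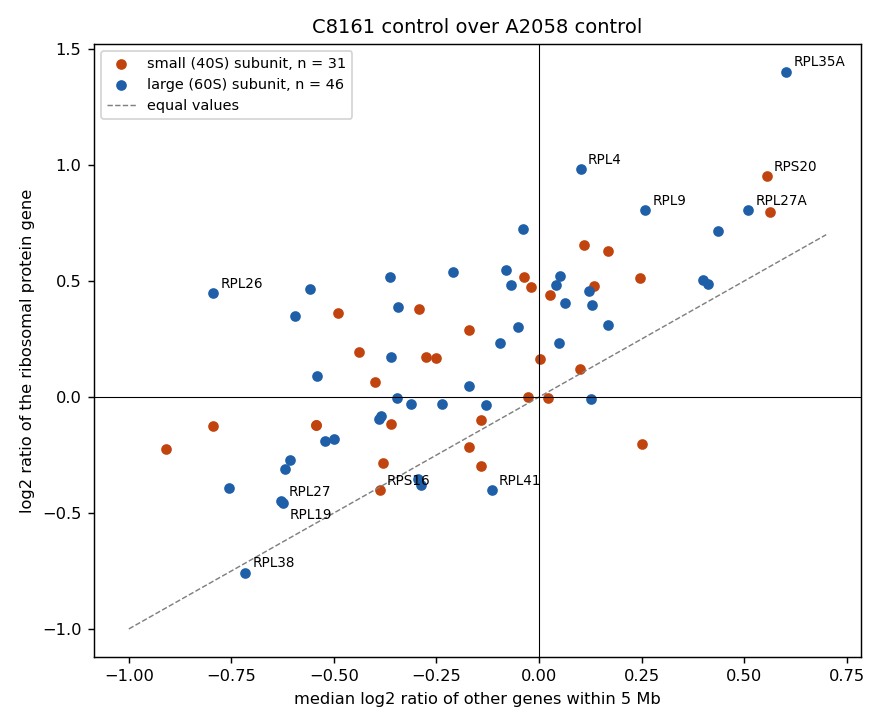
Log2 ratio of each of the 77 members, C8161 control over A2058 control, against the median log2 ratio of the other genes within 5 Mb; the dashed line marks equal values. Members with high neighbourhoods, such as RPL35A, RPS20 and RPL27A, are high, RPL38, RPL19 and RPL27 are low with their neighbours, and 67 of 77 points lie above the line. The same share over other genes was not counted.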

How the data were processed

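RNA of 8 libraries was sequenced, and groups come from the sample labels. The values are RPKM as the authors deposited them, in a single table of 18478 Entrez genes; per the file headers the unit is RPKM, and the headers mark both C8161 columns as covering the whole arm, and whether they are means or pooled reads is not stated. Per the submitters' processing notes, Bowtie2, RSEM and the hg38 build were used; the annotation, tool versions and strandedness were not given in the sources used here. Symbols and coordinates came from RefSeq (GRCh38.p14), matched on Entrez identifier, and GC content, length and shared 50-base stretches from GENCODE 29, using the coding transcript of median length linked to RefSeq (17850 genes, all 77 members).

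Values were used as deposited. Ratios are log2(RPKM + 1) differences over genes with at least 1 RPKM in 1 column of the pair; the added 1 understates differences of low genes. Trends were removed with cubic terms in GC content and log length. The comparisons planned as limma fits, had there been a column per library, are descriptions here. Ratio and trend code was tested on simulated data. Depth was sought from steps of whole reads in low values, between 10000000 and 60000000 reads; the C8161 columns gave no clear step, so their depth is unknown. Members, lists and settings were chosen with earlier results of these data known. Named members are the 8 lowest and 4 highest ratios in C8161, the 5 at each end in A2058, between control lines and by mean level, and the stalk and 5S RNP genes, apart from a few genes that are not reported here; of other lists up to 4 genes with the largest ratio, or every gene of short lists. Marker lists of keratinocytes, fibroblasts, endothelium and leukocytes were also read: in the C8161 control SFN (146 RPKM), TIE1 (67.2 RPKM), ROBO4 (20.5 RPKM), KRT10 (16.2 RPKM) and CDH5 (8.86 RPKM) were above 1 RPKM, and in the A2058 control KRT10 (30.4 RPKM), LUM (7.67 RPKM), COL1A1 (3.97 RPKM), TIE1 (1.45 RPKM), LYZ (1.28 RPKM) and FCER1G (1.17 RPKM); KRT1 and CD3E have no value. Python 3.11.15, numpy 2.4.6, pandas 2.3.3 and matplotlib 3.10.9 were used.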

Additional observations from a re-analysis of the deposited data

Results flagged for a closer look

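The median log2 ratio of members with ATF3 over control had opposite signs in the 2 lines, −0.11 in C8161 and 0.0291 in A2058. The difference was not tested, since each arm has 1 value. The A2058 median was 0.00 after quantile normalization, 0.0016 with trends fitted on other genes of 20 RPKM or more and 0.0068 when centred on the other abundant genes, so under these scalings the opposite sign was lost or nearly so. Of the 18 members lower by 0.2 or more in C8161, 13 were above 0 in A2058, a share no higher than that of all members (60 of 77), so the sign in A2058 is nothing particular to them. Their C8161 ratios were −0.42 for RPS29, −0.38 for RPL18, −0.36 for RPS15, −0.32 for RPLP2, −0.32 for RPS10, −0.29 for RPS28, −0.27 for RPS15A, −0.27 for RPL28, −0.25 for RPL13, −0.23 for RPS13, −0.22 for RPS16, −0.22 for RPS19 and −0.20 for RPL10. RPS24 was the reverse case, at 0.24 in C8161 and below 0 in A2058. None of these differences was tested either, and the A2058 ratios were all within 0.10 of 0 to 2 decimals.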

How the results depend on the processing

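No paired analysis was possible because the C8161 columns carry no replicate and A2058 has 1 library per arm; for the same reason no replicate could be left out. A median was counted as moved past 0.05 and a share past 1 percentage point. In C8161 the member median stayed below 0 under all 10 alternatives tried. An added value of 0.1, no minimum or a minimum of 5 RPKM could hardly move it, since all 77 members were at 100 RPKM or more. These settings gave −0.1073, −0.1072 and −0.1072, against −0.1072 as deposited. Quantile normalization gave −0.031 for all members, −0.0758 for 40S and −0.0164 for 60S, with 10 lower by 0.2 or more. Removing the GC and length trends gave −0.10 for 40S; fitted instead on other genes of 20 RPKM or more, a choice made after seeing the data, −0.0919, with 9 members lower by 0.2 or more and RPS15 and RPLP2 each at −0.19. In A2058 the count of members below 0, 17 as deposited, was 29 with columns rescaled to equal sums, 31 after quantile normalization, 37 with trends fitted on genes of 20 RPKM or more and 32 when centred on the other abundant genes (also added). Between control lines the member, 40S and 60S medians were 0.36, 0.35 and 0.45 when centred on all genes, 0.0194, −0.0686 (reversed) and 0.10 after quantile normalization, 0.32, 0.26 and 0.32 with trends fitted on genes of 20 RPKM or more, and 0.10, 0.10 and 0.20 when centred on the other abundant genes. Removing the trends gave 0.30 for all members and 0.37 for 60S. The 15 members lower by 0.2 or more became 6 when centred on all genes, 27 after quantile normalization and 9 with trends fitted on genes of 20 RPKM or more; the 31 below 0 became 16 when centred, 16 with trends removed and 20 with the added fit, in which RPS16 reversed to 0.013. Without the 10 most abundant other genes the members' shares were 18.6% and 18.4% (A2058 ATF3 and control) and 19.3% and 20.3% (C8161). With windows of 2 and 10 Mb, r with the neighbourhood was 0.611 and 0.672 (0.286 and 0.382 for other abundant genes). The cause of these changes was not tested. In A2058 the counting error of a log2 ratio, about 0.022 for a message of 500 bases at 1000 RPKM, is not far under the SD over members (0.034), and in C8161 the depth is unknown.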
